A study of Sus scrofa with 28 samples.

Results

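ATAC-seq maps open chromatin: a transposase cuts DNA where it is not packed against nucleosomes and inserts sequencing adapters there, and a peak caller lists the places where the cuts pile up. The data described here are the 14 liver libraries whose fat label ends in 600, 7 from the high fat content group and 7 from the low fat content group. They were chosen by that label and make up 14 of the 28 libraries and 22002 of the 84192 deposited peaks, 12683 in the high fat and 9319 in the low fat libraries. All came from female pigs of the native Polish breed Zlotnicka White, kept at a test station on the same feeding and housing and slaughtered near 100 kg, and the labels give 180 as the day. Both groups were prepared in the same way: liver pieces were kept in a hepatocyte medium, dissociated with an enzyme, strained and frozen, and the libraries were made with a TruePrep kit. The labels put the fat groups under a tag named shear force, do not say in which tissue fat was measured, and do not state what 600 means. The library titles run from 1 to 14 across both groups, and the replicate numbers 1 to 7 follow this order within each group. No animals are named. In the other libraries of the series, labelled 200, each title number carries the same fat group. Whether the same animals gave both sets is not stated. Nothing thus says that the samples came from separate animals, and p-values measure the spread between these samples.

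Promoters of active genes are the most regular open sites of a cell, and enhancers, which act at a distance, differ more from tissue to tissue. In the liver, hepatocytes make the larger part of the tissue and hold the programmes for fatty acid synthesis, lipid storage, lipoprotein export and cholesterol metabolism. A change of chromatin with fatness would be looked for at the promoters and enhancers of such genes. The deposited file holds a list of peaks per library and no read counts, so the measure was whether a library lists a region. Peaks of the 14 libraries that overlapped by 1 bp or more were joined into 8863 regions. Closed chromatin, thin sequencing and removal of a peak before deposit all leave a region unlisted, and they cannot be told apart.

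Peak numbers spread over orders of magnitude within both groups. High fat replicates 1 to 7 listed 4455, 68, 1336, 190, 142, 39 and 6453 peaks. Low fat replicates 1 to 7 listed 3332, 101, 141, 526, 119, 1325 and 3775 peaks. Each group thus had 3 libraries of at least 1000 peaks (high fat 1, 3 and 7, low fat 1, 6 and 7) and 4 with fewer. High fat 7 alone held 50.9% of the high fat peaks and high fat 1 another 35.1%, while low fat 7 and 1 held 40.5% and 35.8% of the low fat peaks. On the log10 scale the mean peak number was 2.63 ± 0.889 (SD, n = 7) in high fat and 2.74 ± 0.682 (SD, n = 7) in low fat libraries, and the groups did not differ beyond this spread (exact permutation test of the means, two-sided, p = 0.802). Sequencing depth is unknown, so no interval from counts can be given.

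High fat 3 stood apart from the other libraries of its size. Of its 1336 peaks, 25.4% had their centre within 1000 bp of an annotated start or end of a gene, called gene ends below because the gene table used gives no strand. Low fat 6, which listed 1325 peaks, had 72.0% there. Both libraries shared 243 regions, 18.3% of the regions of high fat 3. In high fat 3, 69.8% of the peaks lay in regions that no other library listed, its median −log10 p of 3.17 was the lowest of the 14 libraries, and its median peak width of 832 bp was the smallest. Group comparisons that rest on this library are given with and without it where both were run.

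The share of peaks near gene ends had a lower mean in high fat libraries. It was 65.7%, 4.41%, 25.4%, 42.6%, 50%, 5.13% and 58.5% in high fat 1 to 7, and 70.4%, 1.98%, 50.4%, 73.2%, 54.6%, 72.0% and 62.6% in low fat 1 to 7. The ranges overlapped, since high fat 1 lay above low fat 3, 5 and 7, and low fat 2 was the lowest of all. The means were 36.0% ± 24.8 (SD, n = 7) and 55.0% ± 24.999 (SD, n = 7), a difference of -19.1 percentage points (exact permutation p = 0.167, adjusted p = 0.502 over the 9 library measures tested). With high fat 3 left out the difference was -17.3 (exact permutation p = 0.224), and with low fat 2 left out it was -27.9 (exact permutation p = 0.0268, not adjusted). Leaving out each library in turn gave p-values between this lowest and 0.312.

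Peaks in regions of a single library made up 21.8% ± 23.2 (SD, n = 7) of the high fat and 5.79% ± 6.76 (SD, n = 7) of the low fat lists (exact permutation p = 0.0612, adjusted p = 0.502). The difference of 16.03 percentage points was 8.13 without high fat 3 (exact permutation p = 0.118). Leaving out 1 library at a time gave unadjusted p-values from 0.0128, without high fat 2, to 0.163, without high fat 7. Of the 4041 regions listed by 1 library, high fat 7 held 2008, high fat 3 held 932 and high fat 1 held 595, while low fat 7 held 273 and low fat 1 held 142. Gene ends were near 7.94% of those of high fat 3, 42.3% of those of high fat 7 and 48.2% of those of high fat 1.

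The other library measures did not differ between the fat groups beyond their spread. The share of peaks on chromosome X was 3.14% ± 1.26 in high fat and 2.14% ± 0.856 in low fat libraries (SD, n = 7 each, exact permutation p = 0.112, adjusted p = 0.502). Median peak width was 990 bp ± 103 against 1012 bp ± 50.02 (SD, n = 7 each, exact permutation p = 0.628). The median −log10 p per library was 3.95 ± 0.492 against 3.78 ± 0.266 (SD, n = 7 each, exact permutation p = 0.462). The share of peaks with their centre inside a gene was 44.6% ± 23.03 against 52.7% ± 19.9 (SD, n = 7 each, exact permutation p = 0.485).

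**Figure D1:**
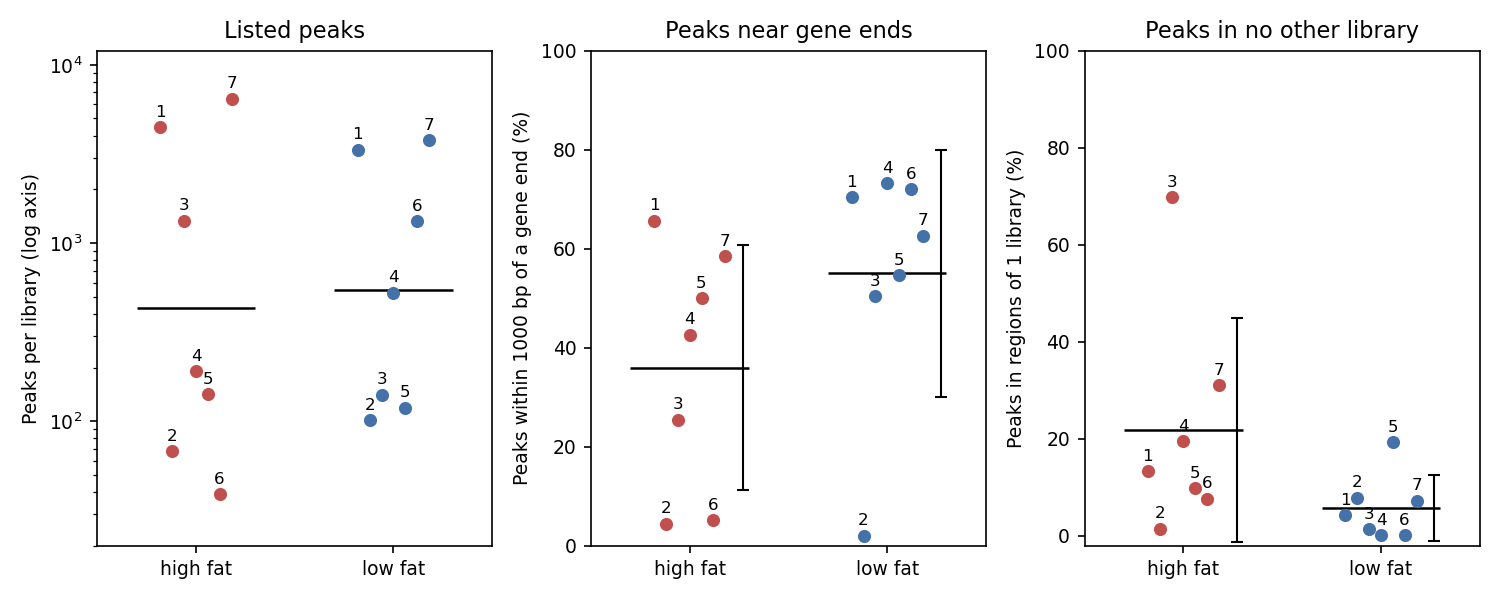
Peaks per library (left, log axis), percent of peaks within 1000 bp of a gene end (middle) and percent of peaks in regions that no other library lists (right). Points are libraries with their replicate numbers, horizontal lines are group means (left, the mean of log10 values) and bars are 1 SD over 7 libraries. High fat 3 lies at 25.4% near gene ends and at 69.8% in regions of 1 library, and both groups hold libraries of under 200 and of over 1000 peaks.

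The central comparison asked which chromatin regions were listed more often in high than in low fat livers. Of 3404 regions listed in at least 3 libraries, 0 (0%) passed an adjusted p of 0.05 in Fisher's exact test (two-sided, Benjamini-Hochberg), and 0 had an unadjusted p under 0.05. The smallest p was 0.0699 by Fisher's exact test and its adjusted value was 1. An exact test stratified by peak number, at least 1000 peaks or fewer, also called 0 (0%), with 0 at an unadjusted p under 0.05 and a smallest p of 0.0714. With the strata divided at 300 peaks it again called 0, and 7 regions, all toward high fat, had an unadjusted p under 0.05 (smallest stratified exact p = 0.0286). These are the 7 regions described below that high fat 1, 3 and 7 and no low fat library listed, so all 7 include high fat 3. The lists could show little. A region in all 7 libraries of a group and in none of the other reaches p = 0.000583 by Fisher's exact test, and 40 such regions would be needed to pass over 3404 tests. The high fat library with the fewest peaks listed 37 regions, so regions toward high fat could not reach 40 by themselves. The low fat library with the fewest peaks listed 80. The stratified exact test can give p = 0.00143 at the least, which needs 98 such regions, so neither direction could reach that number by itself. The adjustment pools both directions, so full splits of both kinds would count together. A region in 5 against 0 libraries reaches p = 0.0210 and a region in 4 against 0 reaches p = 0.0699 in Fisher's exact test. The count of 0 therefore does not show that the groups were alike.

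Among the 3404 regions, 921 were listed by more high fat libraries, 1336 by more low fat libraries and 1147 by equal numbers. This balance depended on the libraries in it. Without high fat 3 and low fat 6, the low fat library of nearly the same peak number, 941 of 3335 regions were listed by more high fat and 730 by more low fat libraries, with 0 calls and a smallest Fisher's exact test p of 0.0606. In the comparison of high fat 1 and 7 with low fat 1 and 7, the numbers were 1430 and 342 of 4723 regions. A difference of at least 4 libraries was found in 1 region toward high fat and in 9 toward low fat. Of the 322 tested regions with at least 2 more low fat than high fat libraries, 297 were not listed by high fat 3, and 260 were listed by both high fat 1 and high fat 7.

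**Figure D2:**
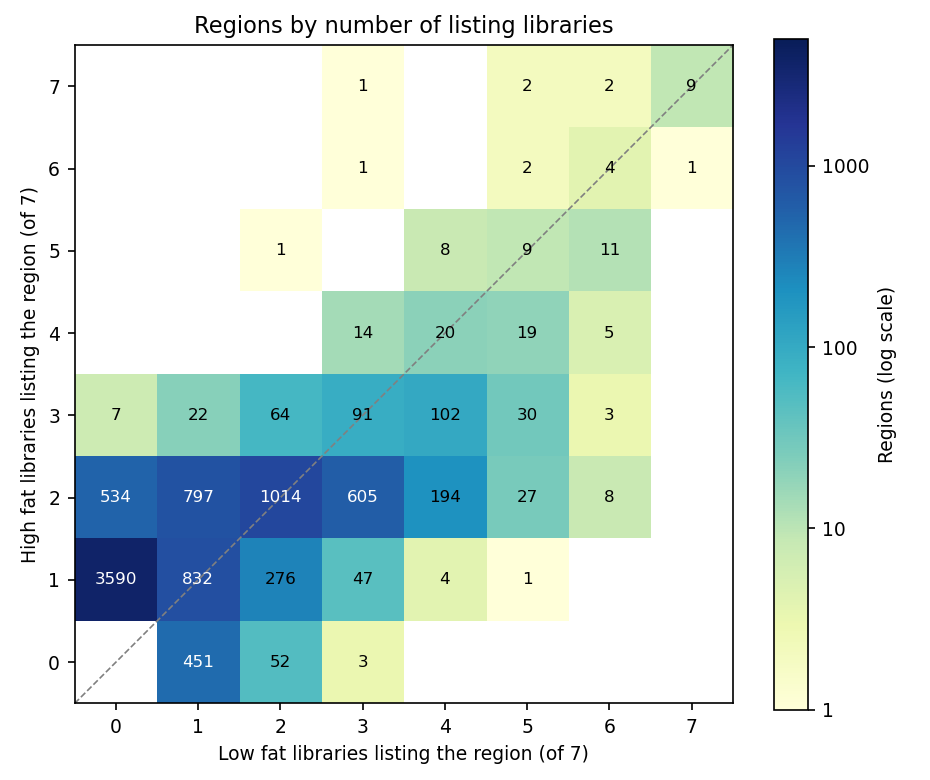
Number of regions (colour, log scale, with the count printed in each cell) by how many of the 7 low fat libraries (horizontal axis) and of the 7 high fat libraries (vertical axis) list them. The dashed line marks equal numbers. Most regions sit in the lower left, 3590 in 1 high fat library alone and 451 in 1 low fat library alone, and the corners for 7 against 0 are empty.

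Over all 8863 regions, 4226 (47.7%) were listed in both groups, 4131 (46.6%) in high fat libraries alone and 506 (5.71%) in low fat libraries alone. These shares rested on the longest lists: they were 31.0% and 20.03% without high fat 7, 59.0% and 2.71% without low fat 7, and 42.8% and 9.39% without high fat 1. Of the regions listed in high fat libraries alone, 86.9% came from 1 library, and of those in low fat libraries alone 89.1%. Gene ends were near 65.5% of the regions of both groups, against 37.1% and 37.4% of regions of the high fat and the low fat group alone. The share near gene ends grew with the number of libraries that listed a region, from 34.2% of regions in 1 library to 81.3% of the 144 regions in 7 libraries. It was then 0% for the 18 regions in 12, 13 or 14 libraries, of which 6, 3 and 9 were in those classes.

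The 6 libraries of at least 1000 peaks show how far the strong lists shared sites. All 6 listed 227 regions, 78.9% of them near gene ends, and 850 more were listed by all 3 low fat and by 2 high fat libraries. Of 3368 regions in at least 3 of these 6 libraries, 7 (0.208%) were in all 3 high fat and no low fat library, and 0 (0%) were the other way round. A region split 3 against 0 cannot go below p = 0.1 in an exact test of 3 against 3. Leaving high fat 3 aside, the other 5 libraries all listed 1073 regions, and high fat 3 lacked 846 of these. By contrast, high fat 1 alone was missing from 1 region that the other 5 listed, high fat 7 from 3, low fat 1 from 4, low fat 7 from 2 and low fat 6 from 65.

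The same 6 lists were reduced to their 1000 strongest peaks by deposited −log10 p, so that peak number was equal. High fat 1 and high fat 7 then shared 66.3% of their peaks. The 3 low fat libraries shared 65.35% to 70.0%, with a mean of 67.0%. Pairs of a high fat library other than high fat 3 with a low fat library shared 62.15% to 72.0%, with a mean of 68.2% over 6 pairs. The range of pairs across the fat groups thus took in that of pairs within them. Pairs with high fat 3 shared 19.3% to 21.65%. Of 927 regions in at least 3 of these lists, 2 (0.216%) were in all 3 high fat and no low fat library and 12 (1.29%) the other way round.

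**Figure D3:**
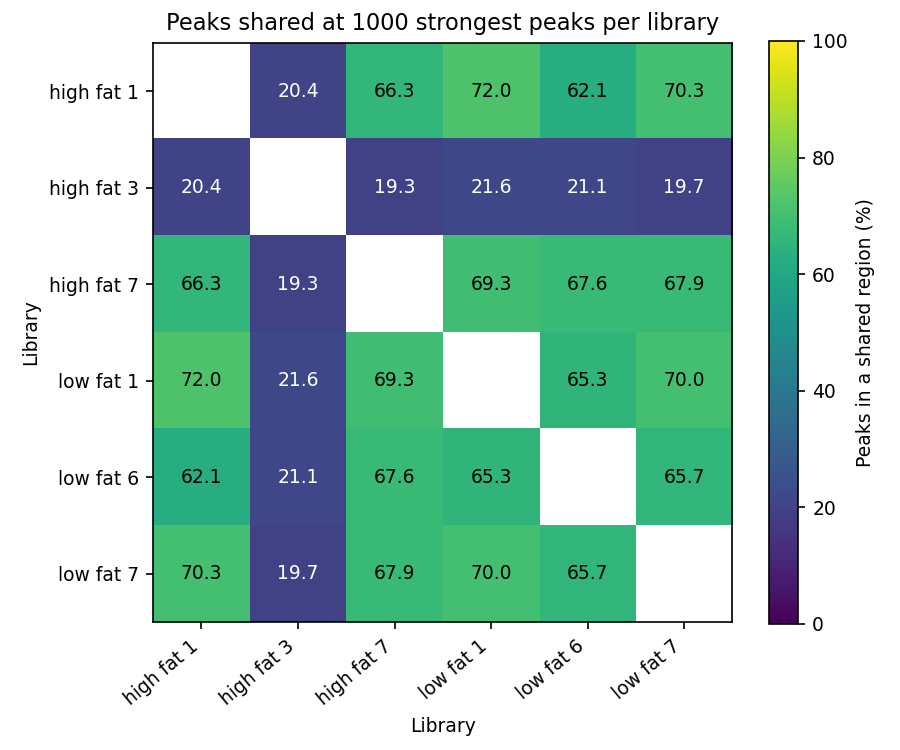
Percent of peaks in a shared region for each pair of the 6 libraries with at least 1000 peaks, each list reduced to its 1000 strongest peaks (colour, 0 to 100%). The row and column of high fat 3 lie near 20%, and the pairs without it lie between 62.15% and 72.0% within and between the fat groups.

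Pairs of a high and a low fat library, matched by closest peak number, shared widely different parts of their lists. High fat 3 and low fat 6 are given above. High fat 1 and low fat 7, of 4455 and 3775 peaks, shared 2843 regions, 64.4% of the first and 75.6% of the second. High fat 7 and low fat 1, matched less closely at 6453 and 3332 peaks, shared 2959 regions, 46.0% and 89.5%. High fat 5 and low fat 3, of 142 and 141 peaks, shared 53 regions and had 50% and 50.4% of their peaks near gene ends. High fat 2 and low fat 2, of 68 and 101 peaks, shared 46 regions, 78.0% and 57.5%, and had 4.41% and 1.98% of their peaks near gene ends. High fat 4 and low fat 5, of 190 and 119 peaks, shared 31 regions, 17.03% and 26.3%. The pair left over, high fat 6 and low fat 4, was far from matched, at 39 and 526 peaks. It shared 23 regions, 62.2% and 4.49%.

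The regions with the smallest p in each direction among those whose nearest gene has a symbol are described next, none of them past the adjusted threshold. Toward low fat, the regions at STT3B, FER, MRPS28, ZNF622, SSX2IP and AZI2 were each listed in high fat 1 and 7 and in all low fat libraries but low fat 2, 2 against 6 (Fisher's exact test p = 0.103, stratified exact p = 0.0714, adjusted p = 1). STT3B is a catalytic subunit of the oligosaccharyltransferase that puts sugar chains on proteins in the endoplasmic reticulum, FER is a cytoplasmic tyrosine kinase and MRPS28 is a protein of the mitochondrial ribosome. AZI2 is an adaptor of the kinase TBK1 in innate immune signalling, SSX2IP is a centrosomal protein and ZNF622 is a zinc finger protein. All 8 regions with 2 high and 6 low fat libraries were missing from high fat 3 and present in high fat 1 and 7. The other 2 of them lie on chromosome 8, at 38981756 to 38983307 within 1000 bp of an end of DCUN1D4, and at 80302799 to 80307177 inside NR3C2, the mineralocorticoid receptor.

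At FER (Sscrofa11.1 chr2:113773471-113775515, over the start coordinate of the gene) the deposited −log10 p was 7.74 in high fat 1 and 7.98 in high fat 7. In low fat 1, 3, 4, 5, 6 and 7 it was 6.97, 3.91, 4.19, 3.34, 5.25 and 8.28. The high fat libraries that listed the peak were thus among those with the highest values, and the small low fat libraries lay near the bottom of the scale. At STT3B (chr13:17533049-17535689, inside the gene) the values were 6.88 and 7.72 in high fat 1 and 7, and 6.69, 3.69, 4.56, 3.34, 5.78 and 8.02 in the 6 low fat libraries. At MRPS28 (chr4:56607179-56608715, at a gene end) they were 7.14 and 7.17, against 5.92, 3.45, 3.67, 3.57, 4.90 and 7.32. Such values carry the unknown depth of each library and were not tested between groups. In the libraries labelled 200, FER was listed in 5 high fat and 6 low fat libraries, STT3B in 4 and 5, and MRPS28 in 4 and 5.

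Of the further regions toward low fat, the region at ROPN1L (chr16:22994-23973, 19815.5 bp from the gene's nearer end) was listed by high fat 7 and by low fat 1, 3, 4, 6 and 7. Its −log10 p was 3.66 in high fat 7 and between 3.39 and 4.62 in 4 of the low fat libraries, with 19.9 in low fat 3. A region 17053 bp from the nearer end of SLC25A46 (chr2:115572107-115572881), a mitochondrial carrier family member, and one at RAB6A (chr9:8198406-8199886), a GTPase of Golgi transport, were each listed in 1 high fat and 4 low fat libraries (Fisher's exact test p = 0.266). Neither was listed by both high fat 1 and high fat 7. In the 200 libraries the SLC25A46 region was listed by 7 high fat and 6 low fat libraries and the RAB6A region by 2 and 4.

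Toward high fat, the region with the smallest p lay on chromosome 5 in a stretch without a nearby protein-coding gene (chr5:40191956-40199429). The nearest gene end, 98657.5 bp away, is that of a leucine transfer RNA gene, TRNAL-CAA. All 7 high fat libraries and low fat 2, 4 and 6 listed it (Fisher's exact test p = 0.0699, stratified exact p = 0.0857, adjusted p = 1). Its −log10 p was 13.9, 25.7, 7.95, 15.3, 12.1, 12.9 and 11.8 in high fat 1 to 7, and 39.1, 26.7 and 18.7 in low fat 2, 4 and 6. The 3 low fat libraries that listed it thus reached values at or above most high fat libraries. Within 200 kb on either side, low fat 1 listed 7 other peaks and low fat 7 listed 2, while low fat 3 and 5 listed 0. In the 200 libraries, 7 high fat and 6 low fat libraries listed the region. A neighbouring region (chr5:40172301-40173321) leaned the other way, with 0 high fat libraries and low fat 1, 2 and 4, and in the 200 libraries all 7 of both groups listed it.

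The 7 regions in high fat 1, 3 and 7 and no low fat library were at RIC8B, RPS13, ZC3H4, ARF2, MIPEP, CDK16 and inside CLSPN (3 against 0, Fisher's exact test p = 0.192, stratified exact p = 0.1). RIC8B is a chaperone of G protein alpha subunits, RPS13 a protein of the small ribosomal subunit, ZC3H4 a zinc finger protein that limits transcription outside genes, MIPEP a mitochondrial peptidase and CDK16 a cyclin-dependent kinase. Their peaks were weak. At RPS13 (chr2:42030078-42031144, over a gene end) the −log10 p was 4.67, 3.17 and 3.61 in high fat 1, 3 and 7. At RIC8B (chr5:13579751-13580956) it was 3.41, 3.73 and 4.20, and at MIPEP (chr11:2790338-2791815) 3.41, 3.17 and 3.48. CDK16 (chrX:41835212-41836552) had 3.41, 3.17 and 4.58 and ARF2 (chr12:17447686-17448701) 3.41, 3.47 and 3.48. In the 200 libraries the RPS13 region was listed by 3 high fat and 3 low fat libraries, RIC8B by 2 and 1, ZC3H4 (chr6:52936671-52938292) by 2 and 2, ARF2 by 2 and 3, MIPEP by 1 and 3, CDK16 by 2 and 1, and the CLSPN region (chr6:91940994-91942077, with AGO4 as the nearest gene end) by 1 and 0. The next regions toward high fat with a named nearest gene lay 72986 bp from OSBPL8 (chr5:39817177-39818105, 7 against 5, Fisher's exact test p = 0.462) and at RUSC2 (chr1:236265564-236267149, 3 against 1, p = 0.559). Of the regions without one, 1 stood at 6 against 3 and 1 at 5 against 2 (Fisher's exact test p = 0.266 and 0.286).

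The 9 regions listed by all 14 libraries included the strongest peaks of the lists by deposited −log10 p. Whether these values reflect open chromatin was not tested. In the 200 libraries, all 7 of each group listed every one of these regions. The region on chromosome 4 (chr4:53952623-53954548) had a −log10 p of 1696, 6838, 768, 1599, 1791, 2470 and 2114 in high fat 1 to 7, and of 2865, 4590, 7881, 3859, 1093, 4535 and 3229 in low fat 1 to 7. High fat 2 and low fat 3, with 68 and 141 listed peaks, had the highest values here, and the groups overlapped. Regions on chromosome 9 (chr9:4699774-4702440) and X (chrX:22066775-22069793) had medians over the libraries of 801 and 339. The other 6 had medians from 7.09 to 38.1, among them regions inside SPOCK3 (chr14:21808222-21808918) and PDE4D (chr16:37934727-37935424), near DOCK10 (chr15:126761542-126763024) and, as a pair, near PIGG at the start of chromosome 8. At SPOCK3 the −log10 p was between 8.90 and 23.99 in high fat and between 6.97 and 23.4 in low fat libraries. None of the 9 lay within 1000 bp of a gene end.

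**Figure D4:**
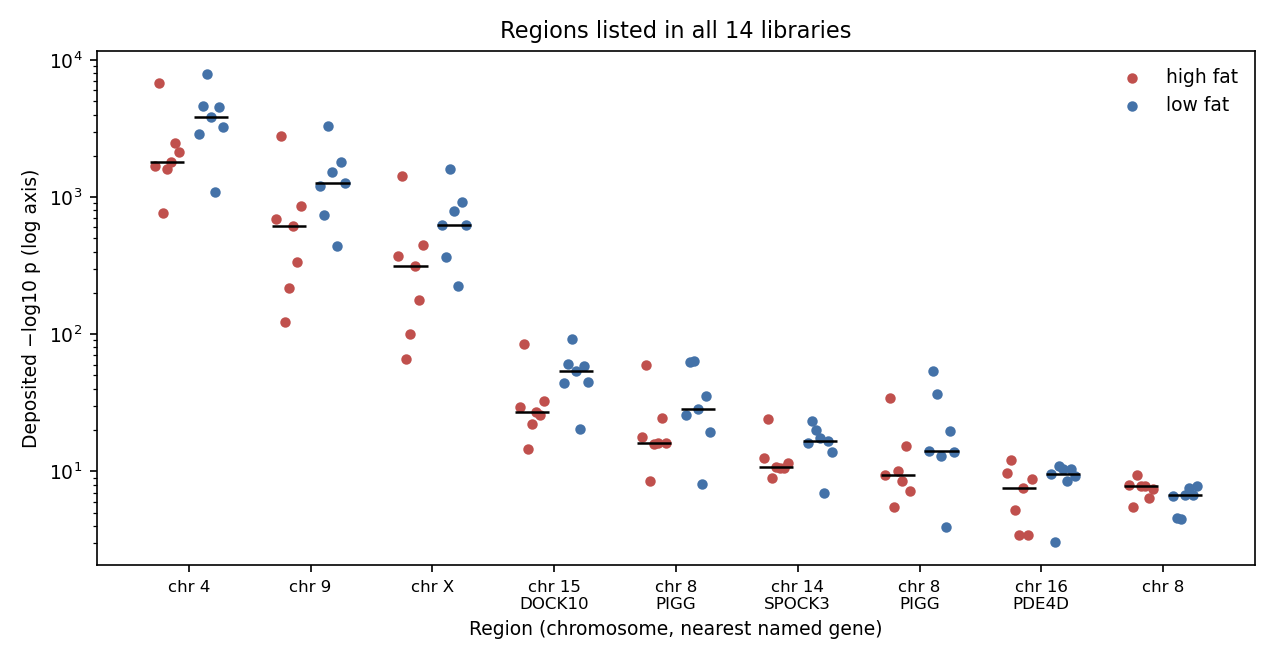
Deposited −log10 p (log axis) of the 9 regions that all 14 libraries list, by chromosome and nearest named gene. Points are libraries, horizontal lines are group medians over 7 libraries. High and low fat libraries overlap at each of the 9 regions, and the chromosome 4 region spans 768 to 7881.

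At the level of genes, 5060 of 19484 protein-coding genes (25.97%) had an end peak, a peak centre no farther than 1000 bp from a gene end, in 1 or more of the 14 libraries. They were 3153 genes in both groups, 1677 in high fat libraries alone and 230 in low fat libraries alone. High fat 7 and high fat 1 had the longest lists, 6453 and 4455 peaks, and this split was not recounted without them. Of the 2704 genes with such a peak in at least 3 libraries, 0 (0%) passed Fisher's exact test after adjustment, and 0 had an unadjusted p under 0.05. A call would have needed 32 genes at 7 against 0, and the shortest lists held an end peak at 1 gene in high fat and 2 genes in low fat, so no gene could pass. More high fat libraries listed 652 of them (24.1%), more low fat libraries 1096 (40.5%) and equal numbers 956. Without high fat 3 and low fat 6 the numbers were 653 and 598 of 2653 genes, again with 0 calls.

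Low fat libraries exceeded high fat libraries by 4 or more at 7 genes (0.259% of those tested), and the reverse held for 0 (0%). They were FER, MRPS28, DCUN1D4, AZI2, ZCWPW2 and ZNF622, at 2 against 6 libraries each, and NFYA, at 0 against 4. AZI2 and ZCWPW2 lie back to back and share the peak. NFYA, the A subunit of the CCAAT-binding factor NF-Y, had the smallest p of all genes (Fisher's exact test p = 0.0699, stratified exact p = 0.05, adjusted p = 1), and this value rested on the use of the peak centre. High fat 1 and high fat 7 listed a peak at this place as well, with −log10 p of 4.77 and 5.07 against 4.43, 3.67, 3.71 and 4.68 in low fat 1, 4, 6 and 7. Their peaks were wider, 2082 and 2166 bp against 1084 to 1596 bp, and their centres lay 1251.5 and 1058.5 bp from the gene end, beyond the limit. Counting any overlap with the window, NFYA stood at 2 against 4 libraries.

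High fat libraries exceeded low fat libraries by 3 at 8 genes, RPS13, PCYOX1L, RIC8B, SMPD1, MIPEP, ARF2, ING2 and CDK16, all at 3 against 0 (Fisher's exact test p = 0.192, adjusted p = 1). SMPD1 is the acid sphingomyelinase of lysosomes. ING2, which reads methylated histone H3, became 3 against 4 when any overlap counted, since 4 low fat libraries had a peak of 2727 to 2896 bp there whose centre lay 1007 to 1103.5 bp away. The other 7 stayed at 3 against 0. By overlap, 0 of 2855 genes were called and 6 had 4 or more low fat libraries in excess.

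Gene ends listed most often were shared by both groups. WDR89, TLE4, ZBTB20, SF3B1, COQ10B and SP4 were each listed in 5 high fat and 6 low fat libraries. TLE4 is a transcriptional corepressor, ZBTB20 a repressor of the zinc finger class that hepatocytes use, SF3B1 a core splicing factor and SP4 a factor that binds GC boxes. GBE1, the glycogen branching enzyme, and REL, a subunit of NF-kappa-B, stood at 4 against 6.

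Gene lists of lipid and energy metabolism were read by the number of their genes with an end peak, beside 29.4% of the protein-coding genes that have a symbol, as all listed genes do. De novo lipogenesis, the making of fatty acids from acetyl units, had 5 of 15 genes (33.3%). THRSP, a regulator of lipogenesis, was listed in 2 high fat (−log10 p 5.37 and 4.20) and 2 low fat libraries (4.50 and 4.89), and ELOVL6, which lengthens fatty acids, in 2 and 2. ACSS2, which activates acetate, was listed in 2 and 0. FASN, SCD, ACLY, ACACB, ME1, SREBF1, MLXIPL and FADS1 had no end peak in the 14 libraries. Both genes listed in at least 3 libraries had equal numbers.

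Triglyceride synthesis and lipid droplet genes had an end peak in 4 of 20 (20%). MOGAT1, an acyltransferase that makes diacylglycerol, was listed in 2 high fat libraries (−log10 p 4.96 and 5.07) and 3 low fat libraries (5.23, 3.56 and 4.04). PLIN2, which coats lipid droplets, was listed in 2 and 2, ABHD5, the activator of lipid droplet lipase, in 2 and 0, and CIDEB in 1 and 0.

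Fatty acid oxidation and ketogenesis had 7 of 17 genes (41.2%), of which 1 of 3 with at least 3 libraries leaned toward high and 2 toward low fat. ACADM, the medium-chain acyl-CoA dehydrogenase, was the most listed of the lipid genes. Its end peak (chr6:137574737-137577104) had a −log10 p of 6.22, 4.57, 3.704 and 6.98 in high fat 1, 3, 4 and 7 and of 5.23, 3.31, 3.50, 4.54 and 6.37 in low fat 1, 3, 4, 6 and 7. The values of the groups overlapped, and libraries 1 and 7 were the highest in both. PDK4, the kinase that shuts pyruvate out of oxidation, stood at 2 against 3 and ACADL at 2 against 1. HADHA and HADHB, which lie head to head and share a peak, were listed by high fat 7.

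Cholesterol and bile acid genes had 8 of 14 (57.1%), with 1 toward high fat, 3 toward low fat and 1 equal among the 5 in at least 3 libraries. HMGCS1, the HMG-CoA synthase of the sterol pathway, had its end peak (chr16:27956754-27958100) in high fat 1, 3 and 7 at 5.86, 3.17 and 5.07, and in low fat 1, 4, 6 and 7 at 4.63, 3.75, 3.79 and 4.53. FDFT1, which makes squalene, and INSIG2, which holds back the sterol sensor, stood at 2 against 3, in high fat 1 and 7 and low fat 1, 6 and 7. SQLE, the squalene epoxidase, stood at 3 against 2. SREBF2, the master regulator of sterol genes, and INSIG1 were listed in 2 high fat and 0 low fat libraries. These differences are of 1 or 2 libraries. Of the 14 genes, only the 5 in at least 3 libraries were tested, and 0 had an unadjusted p under 0.05 in Fisher's exact test. After adjustment no gene could pass, as given above.

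Lipoprotein genes had 6 of 19 (31.6%), with TM6SF2, which loads lipid on VLDL, at 2 against 0, and ABCG5 and ABCG8, neighbours that share a peak, at 1 against 1. Glucose and insulin genes had 6 of 18 (33.3%), among them PYGL and PDK1 at 2 against 2 and FBP1 and FOXO1 at 2 against 1. Of the genes proposed for fatness in pigs, 7 of 18 (38.9%) had an end peak. ADIPOR1, an adiponectin receptor, was listed in high fat 1, 3, 5 and 7 at 6.16, 3.17, 3.40 and 6.30, and in low fat 1, 4, 6 and 7 at 5.88, 3.41, 3.47 and 5.68. LEPROT, annotated apart from the leptin receptor gene LEPR on chromosome 6, stood at 3 against 4 and PHLPP1, a phosphatase of AKT, at 3 against 3. LEP, LEPR, ADIPOQ, MC4R, PPARG, FABP3, TBC1D1 and MSTN had no end peak.

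Clock genes had 11 of 16 (68.8%) and hepatocyte transcription factors 8 of 17 (47.1%). ARNTL and NR1D2, an activator and a repressor of the clock, were each in 2 high fat and 3 low fat libraries, PER3 and TEF in 2 and 2. PER1 and DBP were in 2 and 0. NR5A2, a nuclear receptor of bile acid synthesis, was in 3 and 3, and FOXA1, a pioneer factor, in 2 and 2. Both lists had 2 genes toward high fat among those in at least 3 libraries, and the clock list had 2 toward low fat and the transcription factors 0.

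Immediate early and stress genes, which respond within minutes to handling of tissue, had 12 of 17 (70.6%). Among the 9 in at least 3 libraries, 1 leaned toward high fat, 7 toward low fat and 1 was equal, beside 24.1% and 40.5% of all genes tested. Of those toward low fat, JUN, JUNB, JUND, EGR1 and DNAJB1 were not listed by high fat 3, and HSPA8 and HSPD1 were. Each differed by 1 or 2 libraries, and the list was not recounted without high fat 3. HSPD1 and DNAJB1, chaperone genes, stood at 4 against 5, HSPA8 at 3 against 5 and JUND at 2 against 4. At HSPD1 the −log10 p was 7.26, 4.39, 3.39 and 8.14 in high fat 1, 3, 4 and 7 and 6.21, 3.95, 4.78, 5.49 and 7.64 in low fat 1, 3, 4, 6 and 7. FOS and FOSL2 were in 2 high fat and 0 low fat libraries. None of these 9 genes differed by 4 or more libraries, and the part that dissociation of the tissue had in them was not tested.

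Some markers of hepatocytes were listed, and those of most other liver cells were not. Of 16 hepatocyte markers 8 (50%) had an end peak, with HPX, which carries heme in plasma, at 2 against 3 and ALB, albumin, HP and TTR at 2 against 2. APOA1, SERPINA1, AHSG, TF, CPS1, ASGR1, ASGR2 and CYP3A29 had no end peak. At ALB the −log10 p was 4.89 and 5.05 in high fat 1 and 7 and 4.00 and 3.63 in low fat 1 and 7. Of 12 Kupffer cell and macrophage markers only CD14 had an end peak, in high fat 7 and low fat 1. Of 13 endothelial and stellate cell, 6 cholangiocyte, 11 lymphocyte and 7 erythroid markers, 0 had one. In bulk tissue, fewer cells of a type and less open chromatin per cell cannot be told apart.

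**Figure D5:**
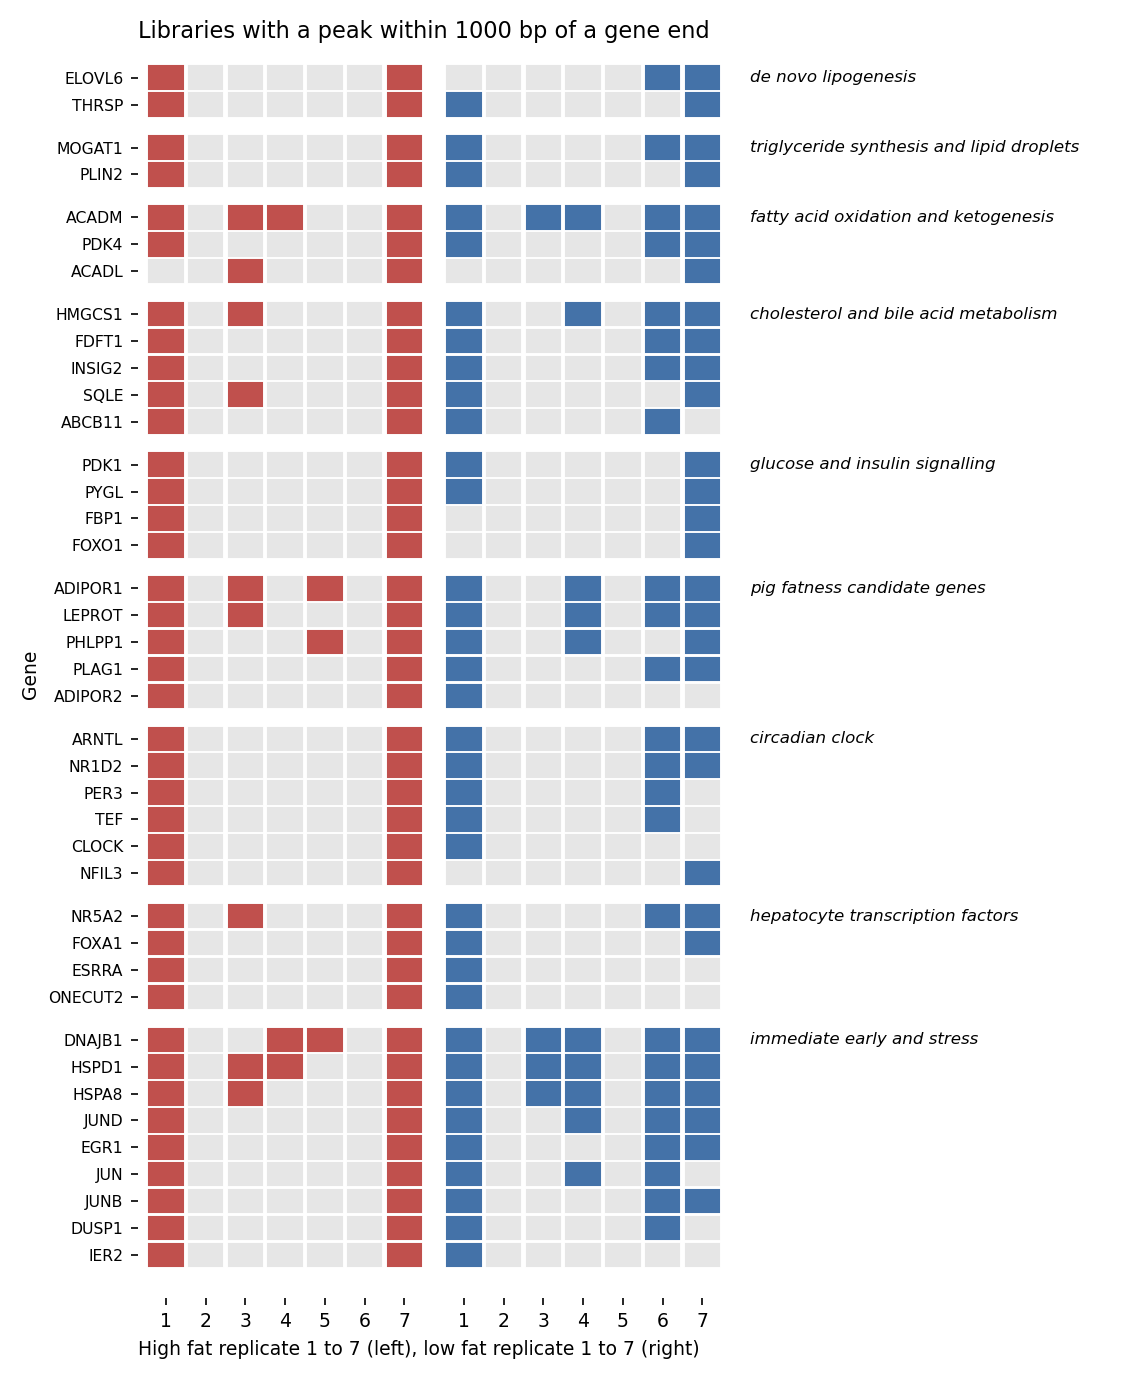
Genes of the lists with an end peak in at least 3 libraries (rows), with filled squares where a library lists a peak centre within 1000 bp of a gene end, for high fat 1 to 7 (left block) and low fat 1 to 7 (right block). The columns of high fat 1 and 7 and of low fat 1 and 7 are the fullest in both groups, and high fat 2 and 6 and low fat 2 and 5 list none of these genes.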

How the data were processed

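ATAC-seq peaks of 14 pig liver libraries were analysed. Tools named in the submitters' processing notes are BWA, Genrich, Picard, SAMtools and FastQC, without versions or roles, and the build is Sscrofa11.1. Per the file headers, the deposited table gives a peak's position, score, signal value, p-value column, summit and library. The deposited signal is the peak caller's area, at least 413 here, and the authors' score is at its cap of 1000 in 69.3% of peaks. The deposited p-value column runs from 2.83 to 7881, so it is a −log10 p. Peaks were listed per library, not pooled, and no source used here gives the rule by which called peaks were removed. Depth is unknown.

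Samples were grouped by the labels. The members, lists and tests were chosen with earlier results of these data known. Regions, the minimum of 3 libraries, the stratified exact test and exact permutation tests were computed in Python 3.11.15 with numpy 2.4.6, pandas 2.3.3 and scipy 1.17.1, and checked on simulated lists. The simulated lists let every library hold the planted regions, so they do not show what the tests can find in lists this short. Positions of 28073 genes on 19 chromosomes came from RefSeq's table for Sscrofa11.1. Named regions were the 10 with the smallest p per direction among those whose nearest gene has a symbol, 1 per gene, those in all 14 libraries and those in all 3 large libraries of 1 group only. Genes named outside these and the lists, such as NFYA, were chosen after their values were seen, as were alternatives leaving out high fat 3 and low fat 6 and counting any overlap. Sequences were not used here, and some genes are not reported here.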

Additional observations from a re-analysis of the deposited data

Results flagged for a closer look

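A library is given here where its gap to the nearest other library of its group is large against the group's whole range. By the nominal rate of this rule, chance alone flags about 1 in 20 groups. That rate was not checked for percentages from lists of such unequal length. Low fat 2, with 101 peaks, had 1.98% of its peaks near gene ends, where the nearest other low fat library had 50.4%. It had 9.90% of its peaks inside genes, where the nearest had 49.6%, and 90.1% outside genes, where the nearest had 50.4%. The last 2 are the same measure seen from both sides. High fat 2 and high fat 6, with 68 and 39 peaks, had 4.41% and 5.13% near gene ends, so short lists poor in gene ends occurred in both groups. Low fat 5 had 19.3% of its 119 peaks in regions of no other library, where the nearest other low fat library had 7.92%.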

How the results depend on the processing

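The count of regions past the adjusted threshold was 0 under every alternative run. These were a 50% overlap of the shorter peak, no minimum number of libraries, peaks at or above the median −log10 p, autosomes only, the strata, the libraries of at least 1000 peaks, their 1000 strongest peaks, each library left out, 6 against 6 and 2 against 2. Of these, both settings of the 1000-peak libraries, 6 against 6 and 2 against 2 could not pass at these list lengths, and neither could the block below, so their counts say nothing about stability. With no minimum and with the strata at 1000 peaks, neither direction could pass by itself, so these counts say little about stability. With all libraries, regions toward low fat could pass by themselves, and those toward high fat could not. With a library left out, those toward low fat could pass by themselves in Fisher's exact test. Those toward high fat could pass only without high fat 1, 6 or 7 or low fat 1 or 7. The stratified exact test then could not pass those toward high fat. It could pass those toward low fat only without high fat 1 or 7 or low fat 2 or 7. The gene count was 0 with windows of 500, 2500 and 5000 bp, with any overlap and without each library, and could pass in none of these except toward low fat without low fat 2. With strata at 300 peaks, 7 regions had an unadjusted p under 0.05, those listed by high fat 1, 3 and 7 and no low fat library. Regions with an unadjusted p under 0.05 numbered 1 among peaks at or above the median −log10 p and 0 to 10 with a library left out, with 8, 9 and 10 without high fat 1, high fat 7 and low fat 2. High minus low differences changed sign among libraries of at least 1000 peaks for log10 peak number (0.12), percent inside genes (0.176) and outside genes (-0.176), median −log10 p (-0.0608) and signal per bp (-0.0401). They did so with the 1000 strongest peaks for percent inside (0.233) and outside genes (-0.233) and median width (36.7 bp), and for width with peaks at or above the median −log10 p (13.2 bp). With a library left out, log10 peak number ran from -0.301 to 0.0692 (reversed without high fat 2 or 6 or low fat 1 or 7), and width from -44.1 to 4.52 bp (reversed without high fat 3). None of these measures was past its threshold, and the cause was not tested. Regions of high fat libraries alone were 39.0% with the 1000 strongest peaks and 31.0% to 59.0% with a library left out, lowest without high fat 7 and highest without low fat 7. Those of low fat libraries alone were 16.5%, and 2.71% to 20.03%, the extremes from the same 2 libraries. The regions named toward high or low fat kept their direction in all settings run. They were picked by their p in these same data, and leaving out 1 library could not reverse any of them. The kept direction therefore says nothing about stability. Counting each region in each setting, 24 results had an unadjusted p under 0.05, each with a library left out. The other 316 were on the same side of it as with all libraries.

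Same-numbered libraries share only a place in the title order of their groups. The deviations from group means correlated above 0.1 in 3 of 7 pairs (-0.137 to 0.451), and 5 of 14 libraries correlated best with their own number. With the replicate number as a block, 0 regions and 0 genes were called, with a smallest p of 0.125 (exact sign test). The share near gene ends then differed by -19.1 points (exact sign-flip permutation p = 0.0312, not adjusted). The pairs follow title order alone, so this p-value does not rest on a paired design. Unknown depth and lists as short as 39 peaks limit what presence can show.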
